A study of Rattus norvegicus with 98 samples.

Results

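The locus coeruleus (LC) samples of a rat brain atlas of fluoxetine treatment were the 4 H3K27ac peak lists titled Sham-LC and FT-LC, replicates 1 and 2 of each, chosen by title from 98 samples, of which 94 have a peak list and 4 are input libraries. Male Long-Evans rats aged 2 months received fluoxetine in their drinking water at 18 mg/kg for 6 weeks (FT) or water alone for the same time (Sham), and no other allele, strain or agent differed between the groups. The assay was H3K27ac ChIP-seq (chromatin immunoprecipitation followed by sequencing) of tissue punched from frozen sections and pooled over several animals for each replicate, so that each library is 1 pool and n = 2 pools per group. Because the punch takes bulk tissue, fewer cells that carry a mark and less acetylation per cell cannot be told apart.

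The LC is the main noradrenergic nucleus of the brain and sends axons to nearly all of the forebrain. It lies in the pons beside the fourth ventricle, next to the caudal end of the periaqueductal grey (PAG), and it receives serotonergic fibres from the raphe. Fluoxetine blocks the serotonin transporter. Acetylation of lysine 27 on histone H3 marks active promoters and enhancers, and the set of acetylated enhancers differs between cell types and brain regions. The comparison asks which acetylated sites differed between FT and Sham in this nucleus. The defining genes of noradrenergic neurons could not be checked, since no annotation of Rn5, the genome build of the lists, was used here, and sites are therefore given by position without gene names.

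Each deposited peak carries a maxScore, the highest score of the peak caller's filter within it, and a Norm-tag-count, a normalised tag count rounded to a whole number. Read counts are not part of the lists, so depth is unknown. Sham replicate 1 held 46226 peaks over 78.1 Mb and Sham replicate 2 held 34038 over 52.1 Mb. FT replicate 1 held 48055 peaks over 80.0 Mb and FT replicate 2 held 37895 over 59.3 Mb. Both replicate 1 lists were longer than both replicate 2 lists. Over all 94 lists the length ran from 19378 to 53135 peaks in Sham and from 24429 to 54505 in FT. The median maxScore was 93.7 and 78.8 in the Sham libraries and 102 and 87.4 in the FT libraries, again higher in replicate 1.

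FT lists were slightly longer than Sham lists of the same number. The log2 ratio of FT to Sham peaks was 0.06 in replicate 1 and 0.15 in replicate 2, and that of the means was 0.10, against 0.39 for replicate 1 over replicate 2 (exact permutation test over the 3 ways to split the libraries 2 against 2, two-sided p = 0.667). The smallest p that this design allows is 0.333. The difference between treatments was smaller than the SD of 0.28 between the libraries of a treatment. Every comparison of occupancy was therefore also made on lists cut by maxScore to the shortest of the 4 (34038 peaks), to the best 10000 and to the best 5000.

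Peak width did not separate the treatments on any of these lists. The median width was 1700 bp and 1500 bp in Sham and 1700 bp and 1600 bp in FT (exact permutation p = 1). Among the best 10000 peaks it was 2300 bp in both replicate 1 libraries and 2100 bp in both replicate 2 libraries, and among the best 5000 it was 2400 bp and 2200 bp in the same way. Replicate 1 peaks were thus wider than replicate 2 peaks at every list length, and treatments of the same number were equal on the 10000 and 5000 lists.

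To compare positions, windows of 1 kb were laid over the genome and called occupied in a list that covered 50% or more of their length. A window separated the treatments when it was occupied in both libraries of one and in neither of the other, and the same count was made for replicate 1 against 2 and for the crossed split (Sham 1 with FT 2 against Sham 2 with FT 1). On full lists 97631 windows were occupied in at least 1 library, and 41284 of them (42.3%) in all 4. Occupied only in both FT libraries were 2442 windows (2.5%), and only in both Sham libraries 1793 (1.84%), together 4.34%. Replicate 1 was separated from replicate 2 by 9862 windows (10.1%) and the crossed groups by 1845 (1.89%), so on full lists the replicate number separated more windows than the treatment did. The log2 split ratio, which sets the treatment split against the average of the other two, was -0.47.

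Cutting the lists to the same number of peaks raised the share of the treatment split. With 34038 peaks each, 2452 windows were FT-higher (2.92% of 83841) and 2226 Sham-higher (2.66%), together 5.58%, with 5982 (7.13%) separating the replicates and 1888 (2.25%) the crossed groups, a log2 split ratio of 0.25 (exact p = 0.667). With 1 library left out, windows were counted that set 1 of the remaining libraries apart from the rest, which is a different count. The ratio then set the library alone in its treatment against the mean of the others. It was -0.14 without FT 1, -0.07 without FT 2, 0.48 without Sham 1 and 0.05 without Sham 2. Among the best 10000 peaks, 1418 windows were FT-higher (4.65% of 30466) and 1766 Sham-higher (5.8%), with 1343 (4.41%) separating the replicates and 554 (1.82%) the crossed groups, a ratio of 1.75. Among the best 5000 peaks, 1004 were FT-higher (6.07% of 16543) and 1107 Sham-higher (6.69%), against 699 (4.23%) and 288 (1.74%), a ratio of 2.10. In both shorter sets the treatment split was the largest of the 3, which gives the smallest exact p the design allows, 0.333. With the replicate number as a block, where a window counts that differed in at least 1 same-numbered pair and went the other way in none, the ratio was 0.27 on the 10000 lists and 0.33 on the 5000 lists. With 1 library left out in turn, so that 1 library stood against 2, the ratio stayed between 0.62 and 0.92 on the 10000 lists and between 0.65 and 1.18 on the 5000 lists. Each of these 8 values was below that of all 4 libraries, which rests on the 2-against-2 count, so their sizes are not directly comparable.

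**Figure D1:**
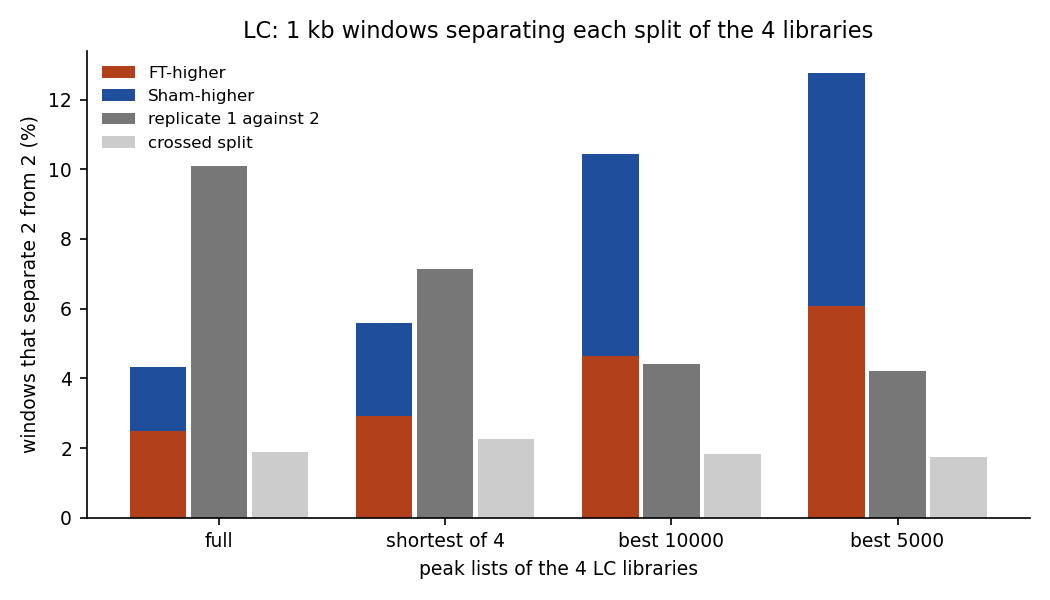
Share of the 1 kb windows occupied in at least 1 LC library (y axis, percent) that separate FT from Sham (stacked, by direction), replicate 1 from 2, and the crossed split, for the 4 list lengths on the x axis. The replicate split is the tallest bar on full lists (10.1%) and on lists of 34038 peaks (7.13%), and the treatment split is the tallest on the best 10000 (10.5%) and the best 5000 (12.8%).

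The same picture came from pairs of libraries. On the best 5000 peaks the Jaccard index, the share of windows occupied in either library that were occupied in both, was 0.697 between the Sham libraries and 0.745 between the FT libraries. Within a replicate number it was 0.656 between FT 1 and Sham 1 and 0.616 between FT 2 and Sham 2. On full lists the index of FT 1 with Sham 1 (0.708) was above those of the Sham libraries (0.592) and the FT libraries (0.640). That of FT 2 with Sham 2 (0.626) was above the Sham pair only. With 34038 peaks FT 1 with Sham 1 (0.728) was again above both same-treatment pairs (0.646 in Sham and 0.693 in FT). The mean of the same-treatment pairs minus that of the mixed pairs was -0.0144 on full lists, 0.00989 with 34038 peaks, 0.0720 with 10000 and 0.0959 with 5000 (exact p = 0.667, 0.667, 0.333 and 0.333).

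FT against Sham was then taken within each replicate number. On the best 5000 peaks FT 1 held 2451 windows that Sham 1 lacked, and Sham 1 held 2657 that FT 1 lacked. In replicate 2 these were 2803 and 2617. Of the 2399 windows that differed in both replicates, 2111 (88.0%) differed in the same direction. The share was 85.2% on the 10000 lists, 71.2% with 34038 peaks and 69.7% on full lists. The share in the same direction was thus higher on the shorter lists. It restates the window counts above and is no further check. Windows of the same direction are the treatment split, and the rest are the crossed split (2111 and 288 on the 5000 lists). On full lists the replicate split (9862) stood further above the crossed split (1845) than the treatment split (4235) did.

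Most of the separating windows of the short lists were not gains or losses of a peak. Of the 1004 FT-higher windows on the 5000 lists, 91.6% were occupied in the full list of Sham 1 and 82.8% in that of Sham 2. Of the 1107 Sham-higher windows, 91.9% were occupied in the full list of FT 1 and 88.0% in that of FT 2. Of all 16543 windows tested, 97.0% and 88.9% were occupied in the full lists of Sham 1 and Sham 2. In those of FT 1 and FT 2 the shares were 95.9% and 90.7%. The separating windows were thus missing from the full lists of the other treatment somewhat more often than tested windows were. Most of them nevertheless changed in rank within lists that held them.

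The separating windows were spread over the genome. With 34038 peaks the share that separated the treatments ran from 4.90% on chromosome 17 to 6.52% on chromosome 13, and no run of FT-higher or Sham-higher windows was longer than 2 windows. Of 2590 bins of 1 Mb with a tested window, 1 held at least 10 FT-higher windows and 1 other held at least 10 Sham-higher windows. On the 5000 lists, where whole peaks changed rank, the longest run was 5 windows, and 86 FT-higher and 141 Sham-higher runs had at least 3.

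The separating windows were then looked up in the other regions. On the best 10000 peaks, Sham-higher LC windows were occupied in PAG, at 88.1% in its Sham and 92.0% in its FT libraries, where the share of all tested windows was 59.7% and 61.6%. In the other 23 regions they were occupied at 2.75% to 16.5%. FT-higher windows had the opposite pattern. They were occupied at 8.36% and 9.56% in the PAG libraries, and at 81.5% and 81.8% in Raphe, 82.2% and 84.8% in Snt (the nucleus of the solitary tract) and 81.1% and 83.9% in VTA (the ventral tegmental area), where the tested windows lay at 60.8% to 69.7%. The lateral hypothalamus (LH) followed with 73.3% and 80.3% (tested 58.6% and 62.1%). Further regions also lay above their tested share. MDT (mediodorsal thalamus) had 71.6% and 77.0% (tested 61.0% and 64.5%), and BNST (bed nucleus) 69.6% and 73.8% (tested 54.2% and 60.7%). MS (medial septum) had 64.5% and 74.2% (tested 53.7% and 62.5%). The excess of FT-higher windows was thus not particular to Raphe, Snt and VTA. The cortical areas and the hippocampal dentate gyrus lay below their tested share. On these lists PAG was the 1 region of 24 in which Sham-higher windows lay above the tested share, and also the region in which FT-higher windows were rarest. The excess of Sham-higher windows in PAG depended on list length. On the 5000 lists they were occupied at 87.4% and 91.2% in PAG (tested 54.5% and 55.8%), with 34038 peaks at 57.7% and 70.1% (tested 57.0% and 64.7%), and on full lists at 49.1% and 62.3%, no higher than the tested 52.3% and 62.9%. In Raphe, Snt and VTA they stayed below the tested share at each length, at 9.68% to 26.9% on full lists. FT-higher windows were below the tested share in PAG at each length, at 13.4% and 23.1% on full lists. The Sham library of HB, which shared almost no windows with any other, was left out.

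**Figure D2:**
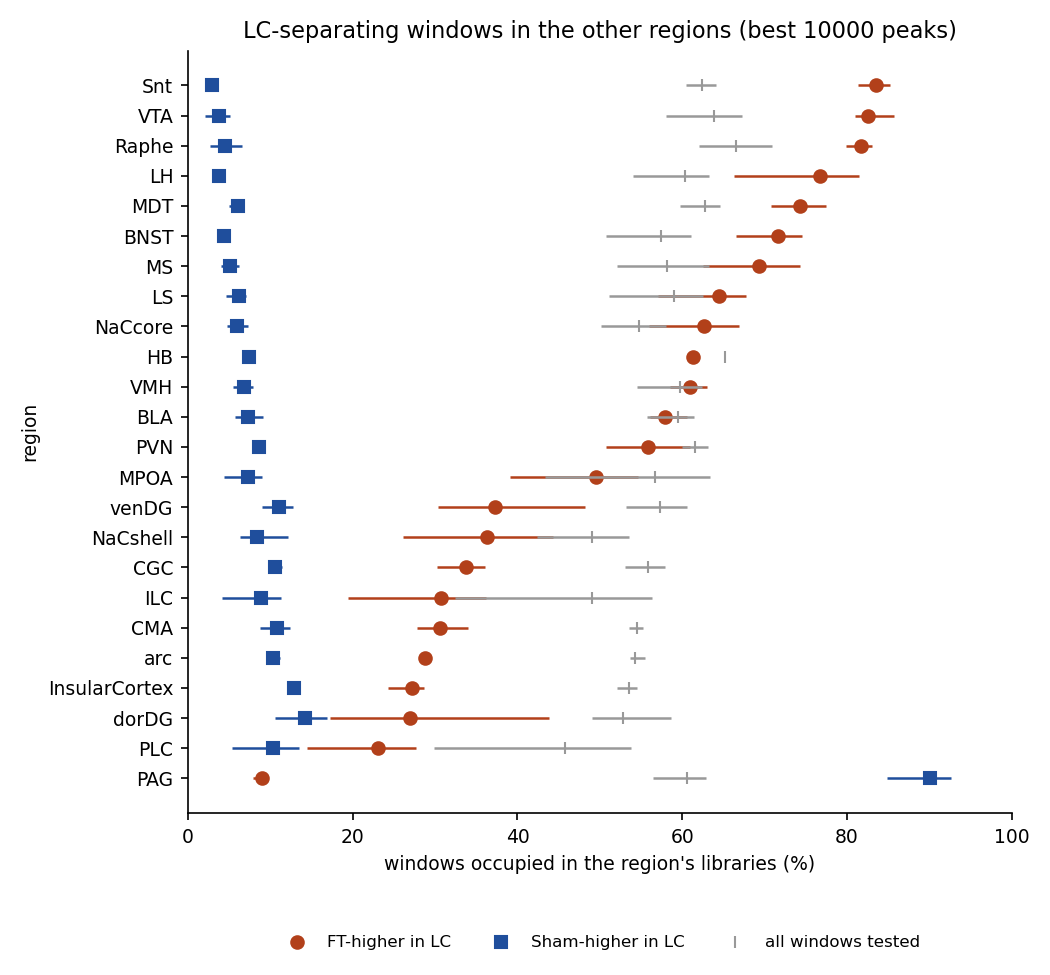
Share of windows occupied (x axis, percent) in the libraries of each other region (y axis) for windows FT-higher in LC (circles), Sham-higher in LC (squares) and all windows tested (grey ticks), on the best 10000 peaks. Marks are the mean of the Sham and FT shares, lines run from the lowest to the highest library, and PAG stands alone with Sham-higher windows above 84% and FT-higher windows below 10%.

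Windows were also chosen by the other regions and then looked up in LC. No LC library entered the choice of windows. The regions given here and in the converse set were picked after the LC windows had been looked up in them. The values thus describe the same 4 LC lists again and are no independent check. On the best 10000 peaks, 5050 windows were restricted to PAG, that is occupied in all 4 PAG libraries and in at most 5% of the libraries of the remaining regions. Of these, 59.4% were occupied in Sham 1 and 53.1% in Sham 2, but 19.2% in FT 1 and 20.7% in FT 2. The difference was -40.2 percentage points in replicate 1 and -32.4 in replicate 2, and the groups did not overlap (exact permutation p = 0.333, the smallest possible). On the best 5000 peaks the shares of 2844 such windows were 50.9% and 45.1% in Sham and 12.3% and 11.7% in FT. On lists of 34038 peaks they were 78.1% and 57.5% in Sham and 51.0% and 41.2% in FT. On full lists FT was lower within each number (62.0% against 84.3%, and 39.6% against 53.8%), while the groups overlapped across numbers. Sets restricted to some other regions were also lower in both FT libraries without overlap, at smaller shares. On the 10000 lists the PVN set was occupied at 7.06% and 7.95% in Sham and 3.97% and 2.87% in FT. The set of dorDG (dorsal dentate gyrus) lay at 2.33% and 1.77% against 0.744% and 0.558%. Those of LS, MDT and arc were lower too, while that of Snt was higher in FT. The part that PAG tissue in the punches has in this difference was not tested.

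The converse set moved the other way. Windows occupied in all 12 libraries of Raphe, Snt and VTA and in no PAG library numbered 6308 on the 10000 lists. Of these, 58.0% and 47.5% were occupied in the Sham libraries of LC and 82.6% and 76.2% in the FT libraries. On full lists the shares were 66.2% and 23.6% in Sham and 86.4% and 57.9% in FT, higher in FT by 20.1 and 34.3 percentage points within the numbers. The 6880 windows that all 16 libraries of these regions held were occupied at 98.5% to 99.8% in each LC library, with no such difference.

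**Figure D3:**
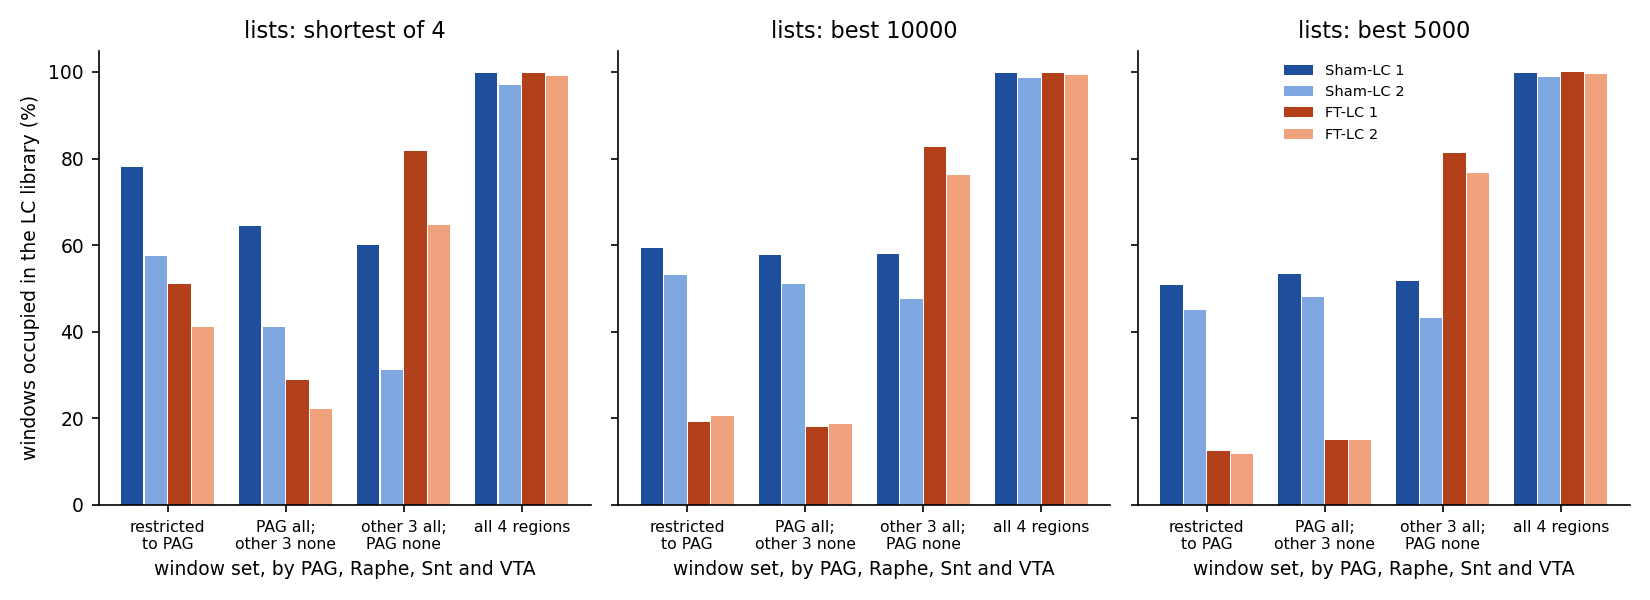
Share of windows occupied (y axis, percent) in each of the 4 LC libraries, on lists cut to 34038, 10000 and 5000 peaks. The sets of windows (x axis) were defined without LC. The set restricted to PAG was defined by PAG against all remaining regions. The others were defined by PAG, Raphe, Snt and VTA, where the other 3 are Raphe, Snt and VTA. Bars of the Sham libraries (blue) are taller than both FT bars for windows restricted to PAG and shorter for windows held by Raphe, Snt and VTA without PAG, and all bars are near 100% for windows of all 4 regions.

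Windows in which these regions were alike were also counted apart. On the 10000 lists, 7679 of the tested windows were occupied in all 16 of these libraries or in none. Since 6880 of them are the windows of all 16 libraries, which nearly every LC library also held, few could separate any split. Of them 25 were FT-higher and 49 Sham-higher, with 58 separating the replicates and 42 the crossed groups, a log2 split ratio of 0.57. The other 22787 windows held 1393 FT-higher and 1717 Sham-higher windows against 1285 and 512, a ratio of 1.79. On the 5000 lists the ratio was 0.06 in the alike windows and 2.21 in the rest. With 34038 peaks the order was reversed, 1.56 in 25202 alike windows (60 FT-higher and 327 Sham-higher against 180 and 83) and 0.17 in the rest.

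Overlapping peaks of the 4 libraries were then joined into elements, to compare peaks rather than windows. Of 57735 elements, 27572 (47.8%) had a peak in all 4 libraries, and 27236 of these had 1 peak in each. All values of a library were ranked over these shared elements. In maxScore rank, 7690 elements stood higher in both FT libraries than in both Sham libraries and 6877 stood lower, 52.8% in all, against 26.0% for the replicate split and 21.1% for the crossed split. In rank by tag count 6905 stood higher and 8556 lower in FT, the opposite balance, and the shares were 56.1%, 20.96% and 22.95%. Spearman's rho of maxScore over these elements, which share their libraries' depth and enrichment, was 0.915 between the Sham libraries and 0.927 between the FT libraries, but 0.883 between FT 1 and Sham 1 and 0.835 between FT 2 and Sham 2. Rank within the shared peaks was thus closer between libraries of a treatment than between libraries of a number, unlike list length and width.

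The difference in rank followed the difference between Raphe and PAG. Over 17987 elements also shared by all PAG and Raphe libraries, the mean FT minus Sham difference in maxScore rank had Pearson's r of 0.71 with the Raphe minus PAG difference. It was 0.68 for FT 1 minus Sham 1 and 0.57 for FT 2 minus Sham 2, but 0.03 for Sham 1 minus Sham 2. The points are elements of the same 12 libraries and no test is attached. Among 1955 elements that ranked over 40 percentage points lower in Raphe than in PAG, the median LC difference was -18.8 percentage points in replicate 1 and -17.0 in replicate 2, and 83.7% ranked lower in FT in both. Among 2381 elements over 40 points higher in Raphe it was 11.4 and 13.2, and 85.8% ranked higher in FT in both. Where Raphe and PAG differed by less than 5 points, the median was 0.34 and -0.15.

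**Figure D4:**
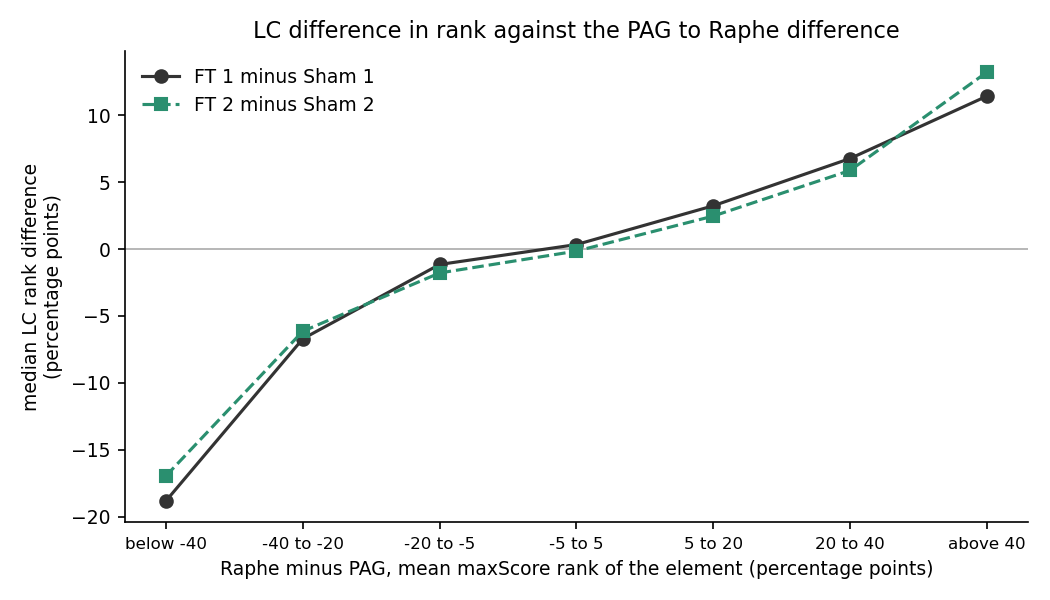
Median FT minus Sham difference in maxScore rank in LC (y axis, percentage points) of elements grouped by the difference in mean rank between Raphe and PAG (x axis, percentage points), for the pair of replicate 1 (circles) and the pair of replicate 2 (squares). Both pairs rise together from -18.8 and -17.0 in the lowest group to 11.4 and 13.2 in the highest and pass 0 where the regions are alike.

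The size of the difference was tested with limma on quantile-normalised log2 values of the shared elements. On the summed tag count with 1 added, 1978 of 27572 elements (7.17%) passed a Benjamini-Hochberg adjusted p of 0.05, 1520 (5.51%) higher and 458 (1.66%) lower in FT. These calls rest on the rounding of the deposited values. Of the 1520 elements called higher, 1401 (92.2%) held the same 4 values, 4 and 3 in Sham and 5 and 4 in FT, and of the 458 called lower, 222 held 5 and 4 in Sham and 4 and 3 in FT. Every shared element with these values was called. In a fit of only the 13906 elements at or above the median by mean value none was called (limma, smallest adjusted p = 0.0698). At an unadjusted p under 0.05 it had 1600 higher and 2531 lower. None was called per kb of peak (290 and 452 unadjusted). With the replicate number as a block 1406 were called higher and 5 lower. With values scaled to the median in place of quantiles, which moves the median of all elements from 0.03 to 0.13 on the log2 scale, the split was 2250 higher and 336 lower. The count grew to 7282 without Sham 1, 7720 without Sham 2, 6128 without FT 1 and 3272 without FT 2.

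Accordingly the 5 elements of lowest p by tag count that were higher in FT held identical values of 4, 3, 5 and 4 in Sham 1, Sham 2, FT 1 and FT 2 and were first by position only. The first of them, chromosome 1 from 3418324 to 3420423 on Rn5, differed by a log2 value of 0.29 (SE 0.00424, limma adjusted p = 0.000619). Elements lower in FT had larger values. The strongest by level was on chromosome 10 from 81692514 to 81695619, with 18 and 14 in Sham and 19 and 14 in FT, where the deposited values were equal or higher in FT within each number and only the normalised ones were lower (log2 -0.19, adjusted p = 0.00127). Another 3, on chromosome 5 from 176120357 to 176123993, chromosome 7 from 126778002 to 126780801 and chromosome 20 from 9067406 to 9070356, held 14 and 10 in Sham and 11 and 8 in FT (log2 -0.51, adjusted p = 0.00222), and the fifth, on chromosome 19 from 36873702 to 36876101, held 17 and 13 against 17 and 12 (log2 -0.31). These 5 calls were lost with the replicate block (limma adjusted p from 0.0517 to 0.0558).

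The maxScore is not rounded, and the same fit on it called 2486 elements (9.02%), 959 (3.48%) higher and 1527 (5.54%) lower in FT. With the replicate block it called 3849, 1680 higher and 2169 lower. Called higher in FT by both measures were 88 elements, of 1520 by tag count and 959 by maxScore. Called lower by both were 234, of 458 and 1527. Over all elements maxScore called 3.48% higher and 5.54% lower. The measures thus shared few of the elements called higher and a larger part of those called lower. None was called in opposite directions. Without Sham 2, FT 1 or FT 2 the maxScore calls fell to 1162, 1272 and 1026, and without Sham 1 they were 2949. Width gave no call (limma, smallest adjusted p = 0.5002, with 1185 elements wider and 1455 narrower in FT at an unadjusted p under 0.05).

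The maxScore fit was repeated on only the 17987 elements also shared by all PAG and Raphe libraries. This leaves out elements that lack a peak in any of those lists, and its calls are not those of the fit above. They divided almost completely by region. Of 632 FT-higher calls, 624 (98.7%) ranked higher in Raphe than in PAG. Of 868 Sham-higher calls, 862 (99.3%) ranked higher in PAG. Over all 17987 elements these shares were 45.4% and 54.5%. Another fit took only the 3646 elements whose rank in PAG and Raphe differed by less than 5 points. None was called by maxScore (limma, 109 higher and 101 lower at an unadjusted p under 0.05). The tag count fit of the same elements called 377, 158 higher and 219 lower.

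The elements of lowest p by maxScore, chosen after the values were seen, show the size of these differences. The element on chromosome 2 from 17491302 to 17494501 had a maxScore of 253 and 145 in Sham and 456 and 377 in FT, a fitted difference of 1.79-fold (log2 0.84, SE 0.124, limma adjusted p = 0.000154). Both FT values lay above both Sham values. Over the elements shared with PAG and Raphe its percentile was 49.0 in PAG and 94.5 in Raphe. The element on chromosome 1 from 95249924 to 95252241 had 150 and 90.1 in Sham and 347 and 216 in FT (1.99-fold, adjusted p = 0.00022), with percentiles of 10.3 in PAG and 81.5 in Raphe. The widest gap in this direction was on chromosome 12 from 52054207 to 52056706, with 69.4 and 49.6 in Sham and 164 and 150 in FT (2.36-fold, adjusted p = 0.00107). No PAG list held a peak there, and all 12 lists of Raphe, Snt and VTA did.

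Elements lower in FT were led by one on chromosome 11 from 36259802 to 36262301, with a maxScore of 229 and 178 in Sham and 88.6 and 54.7 in FT, a fitted fall of 3.38-fold (log2 -1.76, SE 0.206, adjusted p = 1.2e-05). It stands outside the pattern of the others, since no list of PAG, Raphe or VTA and 1 of 4 lists of Snt held a peak there, and 12 of 89 lists of all other regions. The element on chromosome 15 from 29704802 to 29707302 had 269 and 191 in Sham and 140 and 97.8 in FT (2.29-fold lower, adjusted p = 0.00012), with a peak in all 4 PAG lists, 2 Raphe lists and 7 of the 89 lists in all. The element on chromosome 19 from 69530102 to 69533401 had 434 and 344 in Sham and 322 and 205 in FT (1.81-fold lower, adjusted p = 0.00012), and its percentile was 97.8 in PAG and 40.1 in Raphe. On chromosome 7 from 117225802 to 117228201 the deposited values overlapped, with 469 and 318 in Sham and 337 and 222 in FT, and both FT values were lower only within their replicate number (1.71-fold lower after normalisation). Its percentile was 99.6 in PAG and 47.2 in Raphe.

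**Figure D5:**
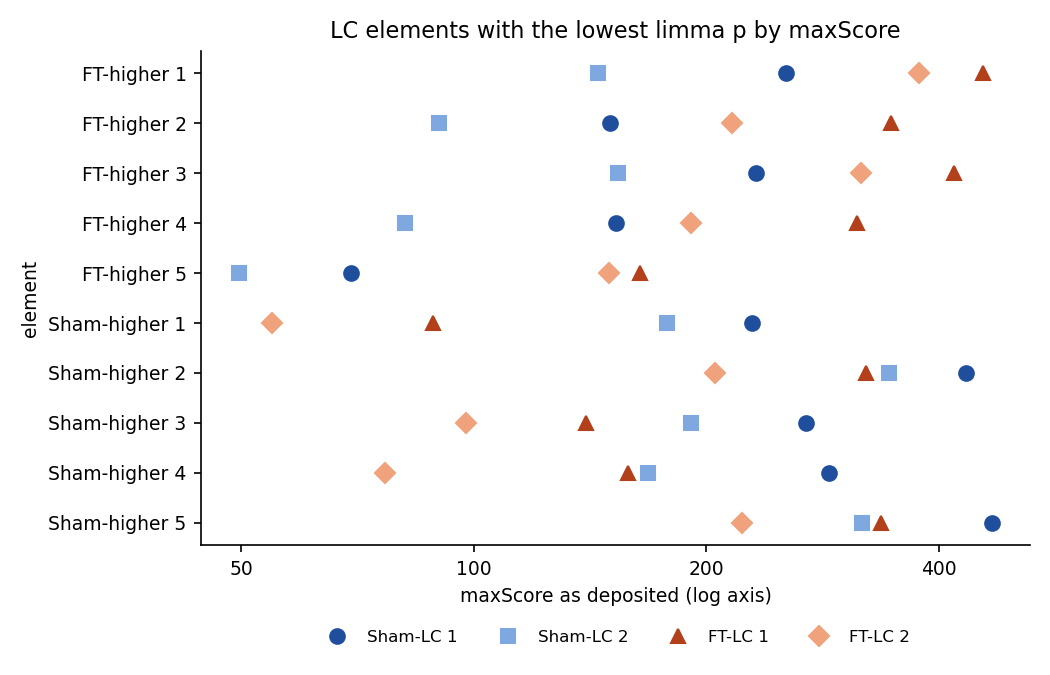
Deposited maxScore (x axis, log scale) in each of the 4 LC libraries for the 5 elements per direction with the lowest limma p by maxScore (y axis). In the FT-higher elements both FT symbols lie right of both Sham symbols, and in Sham-higher 5 the value of Sham-LC 2 (318) lies below that of FT-LC 1 (337).

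Windows were also named, as the loci that separated the treatments in the same direction on full lists, with 34038 peaks and with 10000, which 157 of 2238 FT-higher and 184 of 2009 Sham-higher loci did. The 5 per direction with the best rank by maxScore were mostly edges of peaks that all 4 libraries ranked high. The FT-higher window on chromosome 8 from 39848001 to 39849000 was touched by a peak ranked 151 and 269 in the Sham lists and 45 and 106 in the FT lists. Among the best 10000 peaks it was occupied in 0 of 4 PAG libraries and in all 12 of Raphe, Snt and VTA. The FT-higher window on chromosome 8 from 36338001 to 36339000 belonged to ranks of 523 and 1159 in Sham and 282 and 310 in FT, with 1 of 4 PAG and 8 of the 12 libraries. On the Sham side, the window on chromosome 3 from 86780001 to 86781000 had ranks of 330 and 398 in Sham and 562 and 613 in FT and was occupied in all 4 PAG libraries and in 0 of 85 others. The window on chromosome 10 from 86084001 to 86085000 had ranks of 357 and 323 against 2206 and 1597, with 3 PAG libraries and 0 of 85 others. Other named windows did not follow this division. The FT-higher window of best rank, on chromosome 7 from 142064001 to 142065000, had ranks of 15 and 24 in Sham and 28 and 62 in FT and was occupied in all 4 PAG libraries. The Sham-higher window on chromosome 12 from 38784001 to 38785000 was occupied in 3 PAG libraries but also in 7 of the 12 libraries of Raphe, Snt and VTA, and in 23 of all 85. The Sham-higher window on chromosome 7 from 31912001 to 31913000 was occupied in 2 PAG libraries, in 4 of the 12 and in 17 of the 85.

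Whether the FT effect differed from that of the most similar regions was tested as a limma interaction on the tag count. The regions share pools of animals, and the main fit treated their libraries as independent. By Jaccard index of Sham libraries on lists of 19378 peaks these regions were PAG (0.610) and Raphe (0.517). Of 21055 elements shared with PAG, 561 (2.66%) had a different effect, 144 (0.684%) higher and 417 (1.98%) lower in LC. Of 23864 shared with Raphe, 2711 (11.4%) did, 1141 (4.78%) higher and 1570 (6.58%) lower. With the replicate block these counts were 620 and 2632. Ties of whole numbers enter these fits as they enter the fit of LC alone.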

How the data were processed

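H3K27ac ChIP-seq was analysed in the 4 LC libraries, and the lists of 24 other regions served for comparison. Per the labels and the study's methods, the authors aligned reads to the Rn5 rat genome (BWA is named in the submitters' processing notes, its version is not given in the sources used here) and ran the peak caller DFilter library by library, with no pooling of replicates. The authors deposited for each peak its position, a maxScore and a Norm-tag-count (scores, the second in whole numbers), a −log10 p-value from 4 to 200 and a false discovery rate in percent, which was 0 for every LC peak. Peaks of a list did not overlap, and all widths were multiples of 100 bp. The scores were used within a list or after normalisation across lists, and no counting interval could be computed.

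The study tested reads counted per consensus peak. Here occupancy of 1 kb windows, width and rank were compared by an exact permutation test over the 3 ways to divide the libraries 2 against 2 (two-sided), and shared elements (peaks joined by an overlap of at least 1 bp) were tested with limma 3.58.1 (R 4.3.3, empirical Bayes with a trend, Benjamini-Hochberg threshold 0.05) in the 4 libraries without covariates. All p-values rest on 2 pools per group. Those of limma draw the spread of each element toward a trend over all elements, so they do not measure the spread between pools alone. The exact p gives only the place of the treatment split among the 3 splits. Tables were prepared with Python 3.11.15, numpy 2.4.6, pandas 2.3.3 and matplotlib 3.10.9. The window counts and the limma fit were tried on simulated data, and the exact permutation test was not. The values simulated for limma were not rounded and held no replicate effect, so they do not bear on the tag count calls. Sets of windows by region used the 24 other regions with lists cut to the same number of peaks.

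The study's methods state that Sham and FT samples of a replicate were processed in parallel, so the replicate number was also fitted as a block. Replicate differences of Sham and FT correlated over windows with r = 0.0946 on full lists and 0.112 on lists of 34038 peaks. Named windows separated the treatments in 1 direction on full, 34038-peak and 10000-peak lists and had the best rank by maxScore in their weaker list (5 per direction). Named elements had the lowest limma p (5 per direction by tag count, 3 by width), ties by position, and the naming by maxScore was added. Alternatives were the list length, equal covered length, peaks with −log10 p of at least 6, window size and overlap, scaling, pseudocount, filters, the block and leaving out each library. The libraries, lists and rules were chosen with earlier results of these data known. Input libraries and an Rn5 annotation were not used here.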

Additional observations from a re-analysis of the deposited data

Results flagged for a closer look

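The FT effect on the normalised log2 tag count differed between LC and PAG in 561 elements and between LC and Raphe in 2711 elements (limma interaction, adjusted p under 0.05).

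The elements named by tag count were chosen for the lowest p in LC, so their differences from other regions are not independent of that choice. Those lower in FT on chromosome 5 (176120357 to 176123993), chromosome 7 (126778002 to 126780801) and chromosome 20 (9067406 to 9070356) fell by 0.49 in LC in the fit with PAG, while they differed by 0.10, 0.16 and 0.18 in PAG, so that the effect in LC minus that in PAG was -0.58, -0.64 and -0.67 on the log2 scale (limma adjusted p = 0.0435, 0.0325 and 0.0325). Against Raphe, where the same elements differed by 0.85, 0.70 and 0.63 in the other direction, the difference was -1.42, -1.26 and -1.20 (adjusted p = 0.000546, 0.000591 and 0.00501). For the elements on chromosome 10 (81692514 to 81695619) and chromosome 19 (36873702 to 36876101) LC minus Raphe was -0.48 and -0.54 (adjusted p = 0.0126 and 0.00792). For these last elements the LC effect itself was 0.037 with median scaling (chromosome 10) and 0.17 per kb (chromosome 19), and all 5 calls in LC were lost with the replicate block. Against PAG these elements did not pass (adjusted p = 0.168 and 0.141), nor did any named FT-higher element against a region that shares it (adjusted p from 0.0534 to 0.647).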

How the results depend on the processing

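The causes of the changes below were not tested. The log2 split ratio of 0.25 was -0.47 on full lists, 1.75 on the best 10000 and 2.10 on the best 5000 peaks. It was -1.05 with 5 kb windows and -0.41 with windows wholly covered. In windows alike in PAG and in Raphe, Snt and VTA (chosen after seeing the data) it was 1.56. With 1 library left out, where windows are counted 1 against 2, it ran from -0.14 to 0.48. With the replicate block it was 0.03, and on the 10000 and 5000 lists 0.27 and 0.33. The same-treatment minus mixed Jaccard index (0.00989) was 0.0720 and 0.0959 on the 10000 and 5000 lists, -0.0120 with the replicate block, and -0.0215 to 0.0720 with 1 library left out. Peak number (0.10, with the replicate block 0.11) ran from -0.11 to 0.34 and median width from -0.04 to 0.14 without 1 library, each moved by less than the SD between libraries of a treatment.

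Tag count calls (1978) were 760 and 457 on the 10000 and 5000 lists, where fewer elements are shared, 0 in the upper part by mean value, 0 per kb, 377 in elements alike in PAG and Raphe, 1411 with the replicate block, and 3272 to 7720 without 1 library. The maxScore calls (2486, all fits on maxScore added after seeing the data) were 3849 with the replicate block, 1043 and 378 on the 10000 and 5000 lists, 0 in elements alike in PAG and Raphe, and 1026 to 2949 without 1 library. Width calls (0) were 3 on the 5000 lists and 0 without 1 library. The 10 elements named by maxScore kept their direction and their call in all 85 fits that held them, and those named by tag count turned direction in 4 of 124 fits and lost the call in 33. Both sets were named for the lowest p in LC, and these fits reuse the same libraries. The kept calls are therefore no independent check of the elements. The turned values were -0.13 (FT-higher, chromosome 1 from 3418324) and 0.17 (chromosome 19 from 36873702) per kb, -0.079 by maxScore (chromosome 1 from 8339424) and 0.037 with median scaling (chromosome 10 from 81692514).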
